A study of Mus musculus with 12 samples.

Results

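Transcripts of 41 cell cycle and DNA replication genes were followed across 4 groups of mouse adipose libraries. The members were the rows of the count tables that carry the 41 gene symbols of a fixed list, and all 41 were present among the 24422 features of each table. The study measured poly-A selected RNA from the stromal vascular fraction of adipose tissue, the cells that remain when mature adipocytes have been removed. It asked what Tert, the reverse transcriptase subunit of telomerase, does to transcription there when it is made under the promoter of p21 (Cdkn1a), a CDK inhibitor gene. The 12 libraries form 4 groups of 3. SD mCherry mice (p21+/mcherry) ate a standard diet, and HFD mCherry mice of the same genotype ate a high-fat diet. HFD Tert (p21+/mcherry-Tert) and HFD TertCi (p21+/mcherry-TertCi) mice also ate the high-fat diet, and TertCi is a catalytically inactive form of Tert. All groups carried 1 modified p21 allele, so no group had the unmodified p21 genotype, and no Tert or TertCi group ate the standard diet. The transgene follows the p21 promoter and so depends on how active that promoter is in each cell type. The series text calls the high-fat diet control p21+/-, whereas the labels call it p21+/mcherry. The titles call the mice of both mCherry groups P21het. Age, sex, fat depot and batch are not given, and nothing says that the libraries of a group came from separate animals, so the p-values measure the spread between these samples, which may be technical.

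The cell cycle is driven by cyclins and the cyclin-dependent kinases (CDKs) they activate. In G1 phase, E2F transcription factors switch on genes for DNA replication. The MCM helicase is loaded at replication origins with Cdc6 and Cdt1, and deoxynucleotides and the Pcna clamp then serve DNA synthesis. Later, Foxm1, Mybl2 and the MuvB complex turn on genes for mitosis, and in resting cells the related DREAM complex keeps many of the same genes off, an arm through which p21 can act. In adipose tissue on a high-fat diet, dividing cells are known among macrophages, progenitors and endothelial cells. The members fall into 5 roles: 11 mitotic regulators, 12 chromosome and spindle genes, 5 G1/S cyclins and transcription factors, 8 origin licensing and MCM helicase genes, and 5 genes for DNA synthesis and nucleotides.

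The 4 stretches printed here show promoter letters counted by role, 1 for each role in which a member selected by the naming rule has CHR or E2F letters, each being the first such member in alphabetical order. They are RefSeq sequences on GRCm38.p6, the assembly of the mm10 build named for the counts, and run 5′ to 3′ from 250 bases before to 30 bases after the transcription start. Capitals mark matches, on either strand, to the cell cycle homology region (CHR, searched as TTTGAA and also as TTTAAA), to E2F letters (TTCGCGC and its variants TTGGCGC and then TTCCCGC and then TTGCCGC) and to CCAAT.
Ccnb1 promoter (chr13:100786457-100786736, minus strand): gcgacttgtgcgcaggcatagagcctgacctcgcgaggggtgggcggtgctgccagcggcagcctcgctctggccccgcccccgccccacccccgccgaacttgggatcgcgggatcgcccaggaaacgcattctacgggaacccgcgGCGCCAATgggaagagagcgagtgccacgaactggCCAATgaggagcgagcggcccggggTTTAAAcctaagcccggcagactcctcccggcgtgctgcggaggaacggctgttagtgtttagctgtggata
Birc5 promoter (chr11:117848987-117849266, plus strand): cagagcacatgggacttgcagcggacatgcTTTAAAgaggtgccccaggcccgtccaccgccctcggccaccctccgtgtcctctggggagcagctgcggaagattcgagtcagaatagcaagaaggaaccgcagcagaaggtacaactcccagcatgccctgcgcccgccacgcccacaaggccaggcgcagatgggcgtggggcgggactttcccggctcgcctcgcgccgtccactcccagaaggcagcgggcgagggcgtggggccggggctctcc
Cdt1 promoter (chr8:122567765-122568044, plus strand): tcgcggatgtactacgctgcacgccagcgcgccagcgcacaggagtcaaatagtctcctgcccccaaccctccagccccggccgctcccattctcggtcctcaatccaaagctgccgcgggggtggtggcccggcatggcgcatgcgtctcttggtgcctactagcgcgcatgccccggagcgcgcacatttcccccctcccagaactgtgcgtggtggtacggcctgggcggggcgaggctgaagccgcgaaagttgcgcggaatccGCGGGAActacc
Rrm2 promoter (chr12:24708004-24708283, plus strand): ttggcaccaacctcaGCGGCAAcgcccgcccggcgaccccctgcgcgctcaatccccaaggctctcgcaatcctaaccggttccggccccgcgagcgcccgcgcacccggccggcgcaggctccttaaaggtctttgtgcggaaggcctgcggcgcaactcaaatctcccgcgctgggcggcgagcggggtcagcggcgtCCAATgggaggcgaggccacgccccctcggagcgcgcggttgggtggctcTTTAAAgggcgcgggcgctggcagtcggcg
In Ccnb1 the first capital run holds an E2F match on the minus strand that overlaps a CCAAT, a further CCAAT follows, and TTTAAA stands last, 42 bases before the start. TTTAAA reads the same on both strands. The Cdt1 stretch shows 1 of the E2F matches of that promoter.

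A window of 300 bases, from 250 before to 50 after the start, was found for 34 of the 41 members, 36 windows in all. CHR letters stood in 8 of 9 windows of mitotic regulators and in 10 of 11 of chromosome and spindle genes, but in 2 of 8 of licensing and MCM genes. Of all 32851 promoter windows of the same length, 27.6% held them. E2F letters showed the opposite order, with 7 of 8 windows of licensing and MCM genes, 2 of 9 of mitotic regulators and 1 of 11 of chromosome and spindle genes, against 9.57% of all windows. CCAAT stood in 9 of 9 windows of mitotic regulators, 9 of 11 of chromosome and spindle genes and 6 of 8 of licensing and MCM genes, against 37.4% of all windows. Of the 5 windows of DNA synthesis genes, 2 held CHR letters, 2 held E2F letters and 3 held CCAAT. Of the 3 windows of G1/S genes, 1 (Ccne1) held CHR letters and none held E2F letters or CCAAT. These are matches of letters only, and nothing was measured at these promoters.

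Libraries held 16430330 to 19486965 counts, and levels are given in CPM, the read counts scaled by library size with TMM factors. Libraries differed in tissue make-up within groups. The summed level of 8 epididymis and epithelium markers ran from 56.2 CPM in HFD Tert replicate 27 to 54740 CPM in SD mCherry replicate 3. The epididymal gene Crisp1 was at 0 in HFD TertCi replicate 31, at 0.242 CPM in SD mCherry replicate 2 and 0.239 CPM in HFD mCherry replicate 20, and at 14780 CPM in SD mCherry replicate 3. Macrophage, endothelial and progenitor markers were present in all 12 libraries. Adipoq, a mature adipocyte gene, lay between 0.552 and 7.85 CPM. In bulk RNA, fewer cells of a type cannot be told apart from less RNA per cell. Where values of a gene are given for each library, they follow the order of replicates 1, 2 and 3 for SD mCherry, 15, 17 and 20 for HFD mCherry, 25, 26 and 27 for HFD Tert, and 30, 31 and 33 for HFD TertCi.

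**Figure D1:**
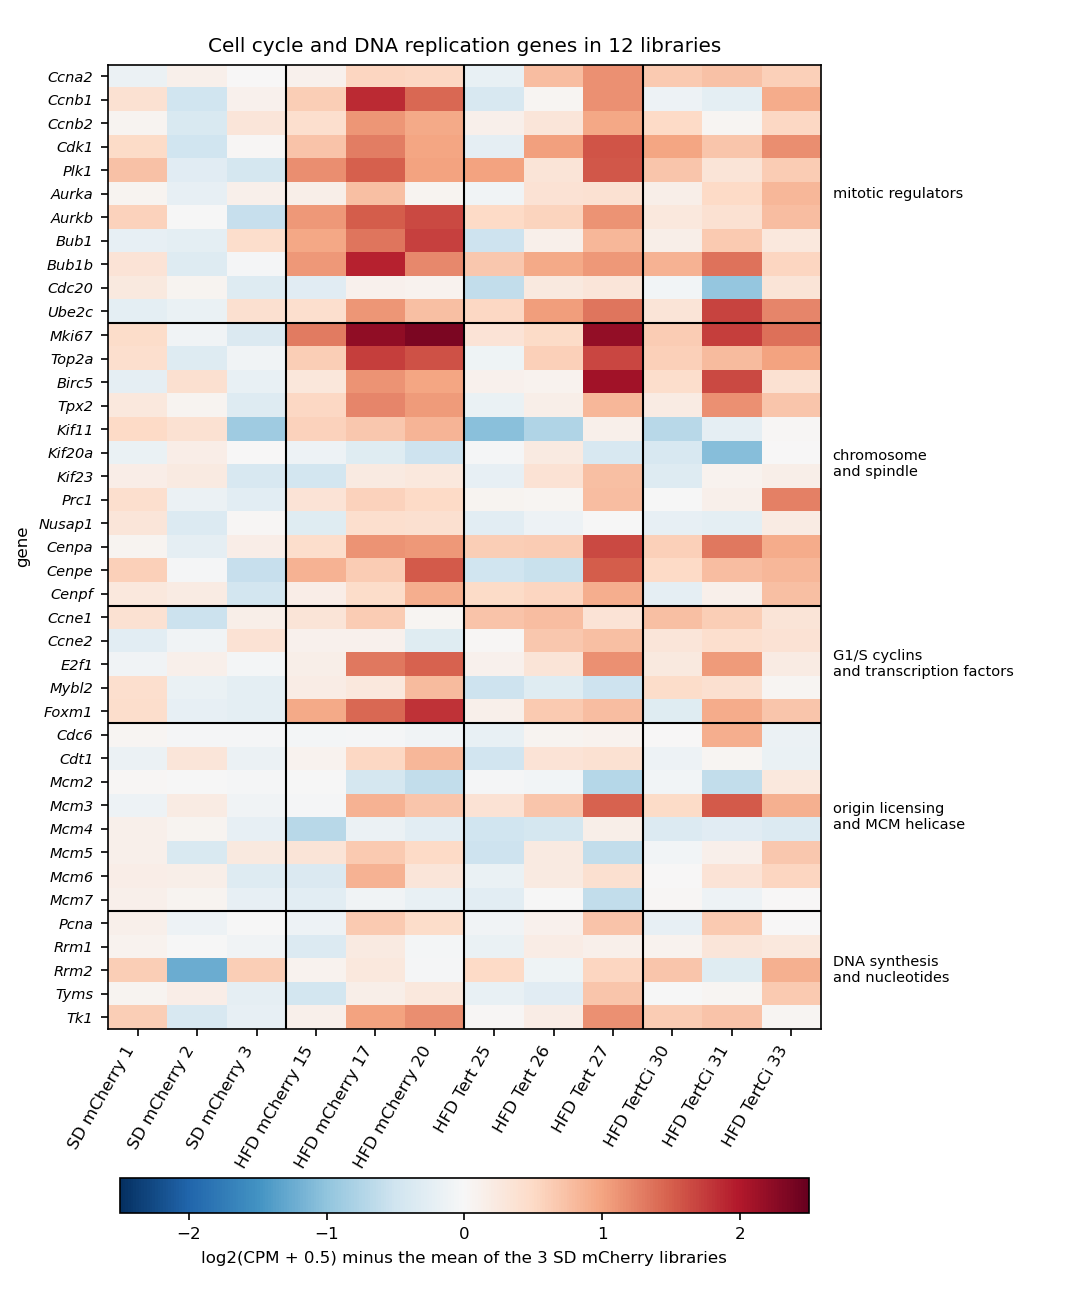
Level of each of the 41 genes (rows, grouped by role) in each of the 12 libraries (columns), as log2(CPM + 0.5) minus the mean of the 3 SD mCherry libraries, on the colour scale shown. Most mitotic, chromosome and spindle genes are above the SD mCherry mean in HFD mCherry replicates 17 and 20 and in HFD Tert replicate 27, and most licensing and DNA synthesis genes vary less.

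On the high-fat diet, mitotic genes stood higher in the mCherry libraries than on the standard diet, while the medians of the replication genes lay near 0. Of the 41 members, 32 had a fitted log2 fold change above 0, against 45.9% of all 16713 genes tested, and the median was 0.57 for the members and -0.08 for all genes. The medians by role were 1.08 for mitotic regulators, 0.79 for chromosome and spindle genes, 0.63 for G1/S genes, 0.14 for licensing and MCM genes and 0.01 for DNA synthesis genes. The difference between roles was not tested. All 3 HFD mCherry libraries exceeded all 3 SD mCherry libraries for 17 members, against 13.9% of all genes: 8 of 11 mitotic regulators, 6 of 12 chromosome and spindle genes, 2 of 5 G1/S genes, 1 of 8 licensing genes and 0 of 5 DNA synthesis genes. The reverse held for 1 member, Cdc6, against 11.6% of all genes.

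No member passed the test. edgeR's quasi-likelihood test with Benjamini-Hochberg adjustment over all genes called 0 of 41 at an adjusted p under 0.05, against 0.0419% of all genes called higher and 0.00598% called lower. At an unadjusted p under 0.05, 12 members were higher (14.1% of all genes) and 0 lower (10% of all genes). DESeq2 called 5 members, all higher, where it called 8.5% of all genes higher and 4.79% lower: Bub1b (adjusted p = 0.00433), Mki67 (0.00582), Foxm1 (0.0151), Aurkb (0.0219) and Top2a (0.0411). Without HFD mCherry replicate 15, edgeR called Mki67 (adjusted p = 0.0299), Bub1b (0.0319), E2f1 (0.0399), Foxm1 (0.0426) and Top2a (0.0457). Without HFD Tert replicate 27 it called Mki67 (0.0290). The shares of all genes called in these fits are not given here, so the calls are not read as particular to the members. The count of 12 fell to 6 without SD mCherry replicate 2, HFD mCherry replicate 17 or HFD mCherry replicate 20. The share of all genes in those fits is not given here. The count of 17 rose to 27 without HFD mCherry replicate 15, when 29.3% of all genes met the same criterion. It fell to 13 with scaling by library size only.

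**Figure D2:**
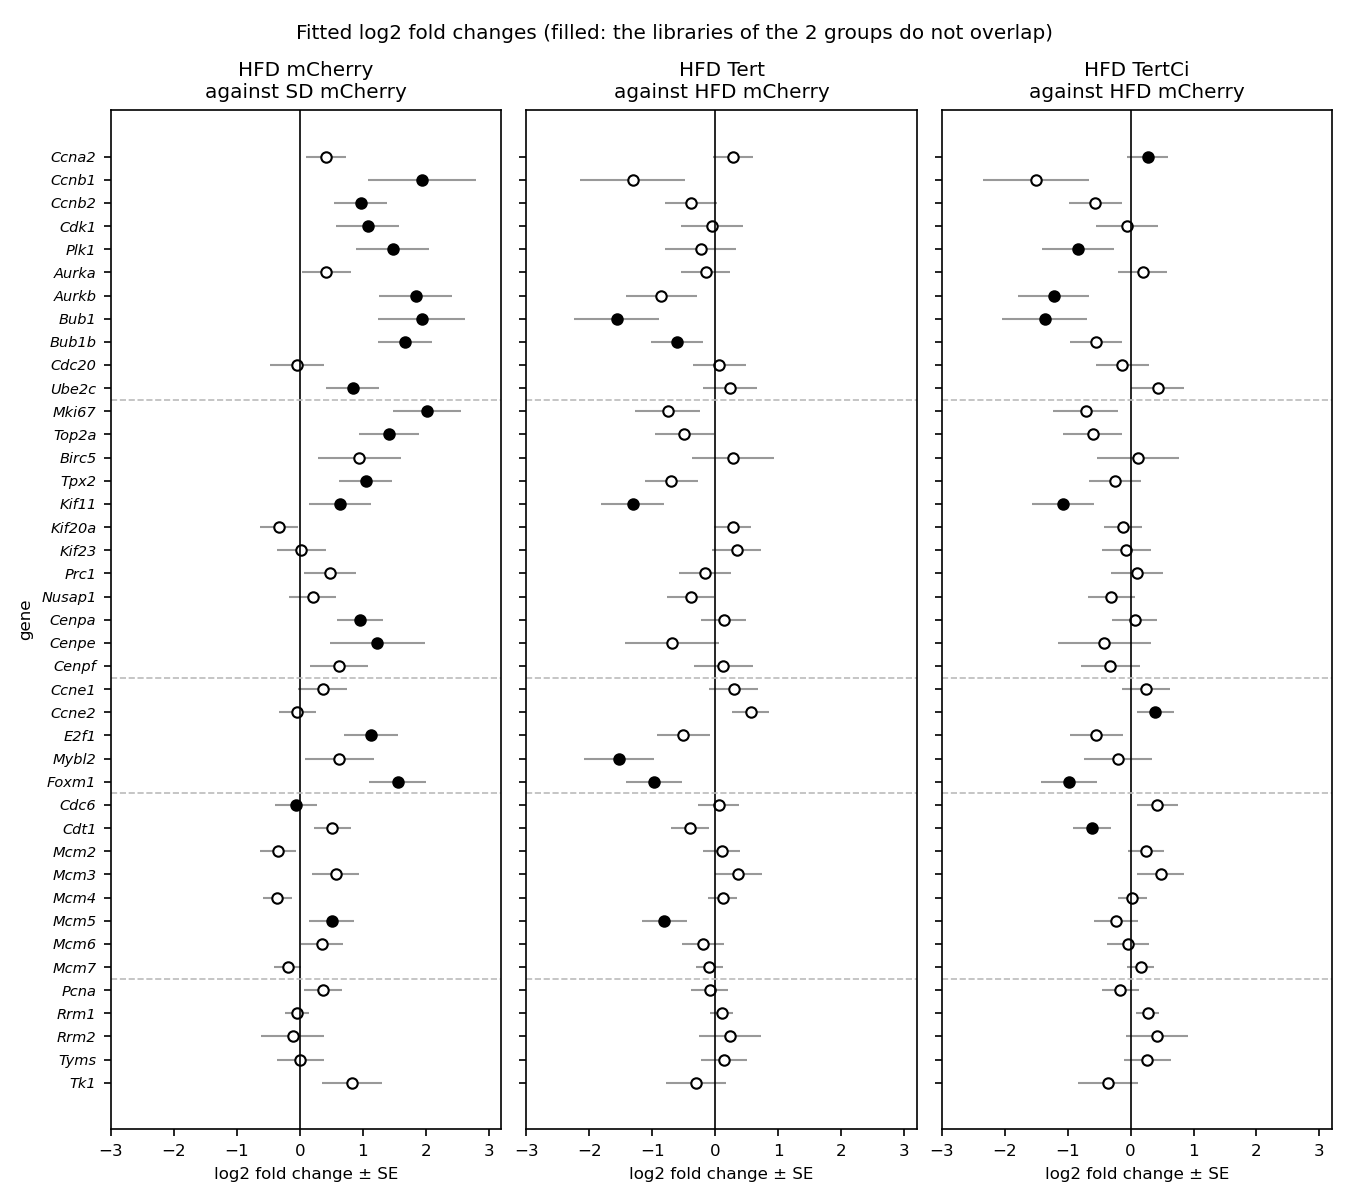
Fitted log2 fold change with its SE for each of the 41 genes (rows, grouped by role) in 3 comparisons (panels): the 2 diets in mCherry mice, Tert against its high-fat diet control, and TertCi against that control. Filled points mark genes whose 3 libraries of one group all lie beyond the 3 of the other: 17 higher and 1 lower with diet, 0 higher and 6 lower for Tert, and 2 higher and 6 lower for TertCi.

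Among mitotic regulators, 10 of 11 had a diet log2 fold change above 0, as had 11 of 12 chromosome and spindle genes. Ccnb1, the cyclin B1 that activates Cdk1 at mitotic entry, was at 0.866, 0.242 and 0.637 CPM in SD mCherry, 1.1, 3.31 and 2.33 in HFD mCherry, 0.292, 0.587 and 1.82 in HFD Tert and 0.459, 0.386 and 1.5 in HFD TertCi. All HFD mCherry libraries lay above all SD mCherry libraries, and the other high-fat diet groups spanned both ranges. Its diet log2 fold change was 1.94 ± 0.857 (SE; edgeR adjusted p = 0.200). Cdk1, the kinase of mitotic entry, was at 3.72, 1.65 and 2.61 CPM in SD mCherry, 4.47, 6.91 and 5.49 in HFD mCherry, 2.1, 5.66 and 8.58 in HFD Tert and 5.51, 4.44 and 6.32 in HFD TertCi. The diet groups did not overlap, and the Tert group held both the highest Cdk1 value, in replicate 27, and a value within the standard diet range, in replicate 25. The Cdk1 log2 fold change with diet was 1.08 ± 0.499 (adjusted p = 0.215).

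Bub1 and Bub1b (BubR1) serve the spindle assembly checkpoint, which holds back anaphase until chromosomes are attached. Bub1 was at 0.407, 0.388 and 0.927 CPM in SD mCherry, 1.55, 2.16 and 2.93 in HFD mCherry, 0.233, 0.641 and 1.35 in HFD Tert and 0.663, 1.16 and 0.752 in HFD TertCi. All 3 HFD mCherry libraries lay above every standard diet and knock-in library, the nearest being HFD Tert replicate 27 at 1.35 CPM. The diet log2 fold change of Bub1 was 1.94 ± 0.691 (adjusted p = 0.140). Bub1b (chr2:118598211-118641591, plus strand) was at 2.24, 1.21 and 1.62 CPM in SD mCherry, 4.09, 7.7 and 4.42 in HFD mCherry, 2.92, 3.63 and 4.05 in HFD Tert and 3.42, 5.02 and 2.61 in HFD TertCi. Its diet groups did not overlap, and at 1.67 ± 0.422 its log2 fold change had the smallest edgeR adjusted p of the members (0.0757). Aurkb, the kinase of the chromosomal passenger complex, was at 1.27, 0.679 and 0.29 CPM in SD mCherry, 1.99, 2.89 and 3.23 in HFD mCherry, 1.17, 1.23 and 2.06 in HFD Tert and 0.918, 1.03 and 1.5 in HFD TertCi. All 3 HFD mCherry values exceeded the SD mCherry values, with a log2 fold change of 1.84 ± 0.581 (adjusted p = 0.111). The lowest of these levels rest on few reads, since 3 counts in a library correspond to 0.145 to 0.193 CPM.

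Other mitotic regulators, except Plk1, had smaller differences with diet. Ccna2, cyclin A2 and the mitotic regulator with the highest mean CPM, was at 7.64, 9.41 and 8.63 CPM in SD mCherry, 9.28, 12.6 and 12.4 in HFD mCherry, 7.41, 14.8 and 19.4 in HFD Tert and 13.7, 14.4 and 13.1 in HFD TertCi. The diet groups overlapped by 1 library, and the log2 fold change was 0.42 ± 0.324 (adjusted p = 0.431). Ube2c, the ubiquitin-conjugating enzyme of the anaphase-promoting complex, was at 2.75, 2.91 and 4.58 CPM in SD mCherry, 4.64, 7.76 and 5.91 in HFD mCherry, 5.02, 7.37 and 9.17 in HFD Tert and 4.28, 11.9 and 8.47 in HFD TertCi. Its diet groups were separate by a narrow margin, with a log2 fold change of 0.84 ± 0.427 (adjusted p = 0.250). Cdc20, an activator of that complex, was at 6.31, 5.53 and 4.11 CPM in SD mCherry, 4.2, 5.65 and 5.61 in HFD mCherry, 3.27, 6.3 and 6.58 in HFD Tert and 4.95, 2.45 and 6.72 in HFD TertCi. Its groups overlapped throughout, and its diet log2 fold change of -0.05 ± 0.423 was the lowest of the role (adjusted p = 0.955). Plk1 and Ccnb2, a polo-like kinase and cyclin B2, had diet log2 fold changes of 1.48 ± 0.580 and 0.96 ± 0.418 with groups that did not overlap, and the kinase Aurka one of 0.42 ± 0.389 with groups that did.

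Among chromosome and spindle genes, Mki67 and Top2a stood highest on the high-fat diet. Mki67 (chr7:135689784-135716361, minus strand), whose protein Ki-67 coats mitotic chromosomes and is a common marker of dividing cells, was at 18.3, 12.5 and 10.2 CPM in SD mCherry, 33.3, 63.3 and 69.9 in HFD mCherry, 16.9, 18.6 and 63.1 in HFD Tert and 21, 45 and 35.4 in HFD TertCi. Every HFD mCherry library exceeded every SD mCherry library, replicate 15 being the lowest of its group by a wide margin. The diet log2 fold change of 2.02 ± 0.538 was the highest among the 41 members (edgeR adjusted p = 0.0822). With the epithelial marker score of each library as a covariate, it was 1.55 ± 0.339 (adjusted p = 0.0230). The share of all genes called in that fit is not given here, so the call is not read as particular to Mki67. Top2a, the topoisomerase that untangles sister chromatids, was at 8.71, 4.99 and 6.02 CPM in SD mCherry, 10.1, 22.3 and 20.3 in HFD mCherry, 5.95, 9.93 and 21.6 in HFD Tert and 9.9, 11.5 and 13.3 in HFD TertCi. The diet groups did not overlap, with HFD mCherry replicates 17 and 20 well above the rest, and the log2 fold change was 1.42 ± 0.474 (adjusted p = 0.123).

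The remaining chromosome and spindle genes were mixed. Birc5 (survivin), a subunit of the chromosomal passenger complex, was at 1.83, 3.1 and 1.91 CPM in SD mCherry, 2.82, 5.47 and 4.9 in HFD mCherry, 2.45, 2.4 and 11.2 in HFD Tert and 3.21, 8.05 and 3.06 in HFD TertCi. HFD Tert replicate 27 and HFD TertCi replicate 31 held its highest values, and its diet groups overlapped by 1 library (log2 fold change 0.94 ± 0.659, adjusted p = 0.386). Kif11, the kinesin that separates spindle poles, was at 5.96, 5.38 and 1.97 CPM in SD mCherry, 6.24, 6.79 and 7.7 in HFD mCherry, 1.69, 2.19 and 4.47 in HFD Tert and 2.3, 3.41 and 4.11 in HFD TertCi. It was high in 2 of 3 standard diet libraries and all HFD mCherry libraries (diet log2 fold change 0.64 ± 0.492, adjusted p = 0.427). Kif23, a kinesin of cytokinesis, was at 4.68, 4.9 and 3.01 CPM in SD mCherry, 2.87, 4.87 and 5.08 in HFD mCherry, 3.5, 5.45 and 7.29 in HFD Tert and 3.21, 4.38 and 4.61 in HFD TertCi. All 4 groups overlapped (diet log2 fold change 0.02 ± 0.389). Tpx2, Cenpa and Cenpe, for a spindle assembly factor, the centromeric histone and a kinetochore motor, had diet groups that did not overlap, at log2 fold changes of 1.05 ± 0.420, 0.95 ± 0.362 and 1.23 ± 0.750. Cenpf, Prc1 and Nusap1 overlapped, at 0.62 ± 0.468, 0.48 ± 0.416 and 0.20 ± 0.372.

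Kif20a, another kinesin of cytokinesis, was the lowest of its role with diet, at a log2 fold change of -0.33 ± 0.302 (adjusted p = 0.506). Its level was 14.2, 17.9 and 16 CPM in SD mCherry, 14.5, 12.9 and 10.9 in HFD mCherry, 15.6, 18.7 and 12 in HFD Tert and 12, 7.34 and 16 in HFD TertCi. All groups overlapped, and HFD TertCi replicate 31 was the lowest library. Of its exon bases, 29.3% overlap Cdc23, a gene of the anaphase-promoting complex on the opposite strand, which was also lowest in that library, at 18.7 CPM against 22.1 to 39.5 CPM in the others. Whether counting used strand is not given in the sources used here, so reads of Kif20a and Cdc23 may not be separable. Ube2c overlaps Tnnc2, a muscle gene, over 22.8% of its exon bases, and Ccne2, Ccna2, Mcm7 and Prc1 overlap opposite-strand genes over 17.4%, 12.5%, 12.6% and 11.1%, and their levels carry the same limit.

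**Figure D3:**
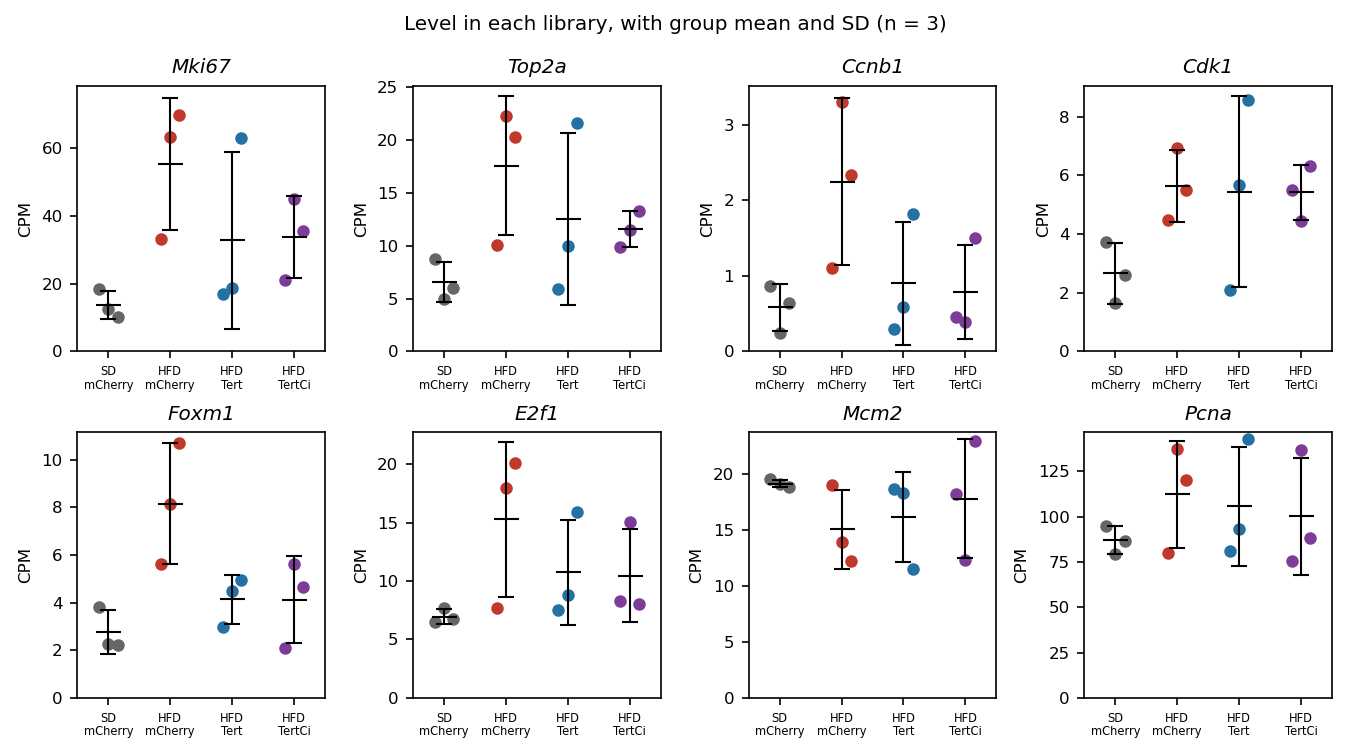
Level in CPM (linear axes from 0) of Mki67, Top2a, Ccnb1, Cdk1, Foxm1, E2f1, Mcm2 and Pcna in each library, by group. Points are the 3 libraries, and lines the group mean and SD. Mki67 runs from 10.2 to 18.3 CPM in SD mCherry and from 33.3 to 69.9 CPM in HFD mCherry, whereas the Mcm2 and Pcna groups overlap.

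Foxm1 and E2f1 were the G1/S and transcription factor genes that stood higher on the high-fat diet. Foxm1 (chr6:128362967-128376146, plus strand), a transcription factor of mitotic genes, was at 3.82, 2.28 and 2.2 CPM in SD mCherry, 5.63, 8.12 and 10.7 in HFD mCherry, 2.98, 4.48 and 4.94 in HFD Tert and 2.09, 5.6 and 4.66 in HFD TertCi. The HFD mCherry libraries lay above all 9 others, the nearest being HFD TertCi replicate 31 at 5.6 CPM (diet log2 fold change 1.56 ± 0.452, adjusted p = 0.0947). E2f1, an activator of replication genes, was at 6.47, 7.66 and 6.72 CPM in SD mCherry, 7.68, 18 and 20.1 in HFD mCherry, 7.53, 8.81 and 15.9 in HFD Tert and 8.26, 15.1 and 8.02 in HFD TertCi. HFD mCherry replicate 15 was just above the highest standard diet library and replicates 17 and 20 were far above it (1.13 ± 0.429, adjusted p = 0.157). Mybl2 (B-Myb), which works with the MuvB complex, was at 1.12, 0.582 and 0.521 CPM in SD mCherry, 0.884, 0.962 and 1.61 in HFD mCherry, 0.35, 0.48 and 0.353 in HFD Tert and 1.17, 1.09 and 0.752 in HFD TertCi. Its diet groups overlapped (0.63 ± 0.545). Ccne2 (cyclin E2) was at 5.91, 6.74 and 9.38 CPM in SD mCherry, 7.84, 7.76 and 5.79 in HFD mCherry, 7.35, 11.9 and 12.5 in HFD Tert and 8.98, 9.79 and 9.37 in HFD TertCi, with overlapping diet groups and a log2 fold change of -0.04 ± 0.294, the lowest of the role, and Ccne1 (cyclin E1) had 0.36 ± 0.388.

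Among the 8 licensing and MCM genes, 4 had a diet log2 fold change above 0 and 4 below, and none had an unadjusted p under 0.05. Mcm4, the member of this role with the highest mean CPM, was at 29.7, 28.7 and 23.7 CPM in SD mCherry, 16.7, 24.5 and 22.8 in HFD mCherry, 19.3, 20 and 30.3 in HFD Tert and 21.4, 22.2 and 21.5 in HFD TertCi. It was lowest in HFD mCherry replicate 15, and its diet log2 fold change of -0.36 ± 0.231 was the lowest of the 41 members (adjusted p = 0.345). Mcm2, a further helicase subunit, was at 19.5, 19.1 and 18.8 CPM in SD mCherry, 19, 13.9 and 12.2 in HFD mCherry, 18.6, 18.3 and 11.5 in HFD Tert and 18.2, 12.3 and 22.9 in HFD TertCi. Standard diet libraries were close together, and the 4 lowest values lay in the 4 libraries with the least epithelial signal (diet -0.35 ± 0.289, adjusted p = 0.462). Mcm3 was at 12.3, 15.5 and 12.6 CPM in SD mCherry, 13, 24.9 and 22 in HFD mCherry, 17.4, 21.8 and 38.1 in HFD Tert and 18.9, 39.4 and 25.1 in HFD TertCi. It ran highest in HFD TertCi replicate 31 and HFD Tert replicate 27, and the diet groups overlapped (0.57 ± 0.370, adjusted p = 0.351).

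Mcm5 was at 6.36, 4.32 and 6.95 CPM in SD mCherry, 7.35, 9.32 and 8.36 in HFD mCherry, 3.85, 6.83 and 3.58 in HFD Tert and 5.46, 6.37 and 9.47 in HFD TertCi. It was the only licensing member whose HFD mCherry libraries all exceeded SD mCherry (0.51 ± 0.356, adjusted p = 0.388). Cdt1, which loads the helicase, was at 11.8, 16.1 and 11.7 CPM in SD mCherry, 13.9, 19 and 23.7 in HFD mCherry, 9.16, 16.6 and 17.2 in HFD Tert and 11.9, 13.6 and 11.6 in HFD TertCi. Its diet groups overlapped (0.52 ± 0.299, adjusted p = 0.301). Cdc6, the other loading factor, lay narrowly below the standard diet range in HFD mCherry (-0.06 ± 0.329). Mcm6 and Mcm7 had 0.35 ± 0.335 and -0.19 ± 0.215.

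Among the 5 DNA synthesis genes, 3 had a diet log2 fold change above 0 and 2 below, from -0.11 to 0.83. Pcna, the sliding clamp, was at 94.7, 79.6 and 86.8 CPM in SD mCherry, 79.8, 137 and 120.2 in HFD mCherry, 81.2, 92.9 and 143 in HFD Tert and 75.6, 137 and 88 in HFD TertCi. The groups overlapped, with high values in HFD mCherry replicates 17 and 20, HFD Tert replicate 27 and HFD TertCi replicate 31 (diet 0.37 ± 0.296, adjusted p = 0.443). Per kilobase of exon, Pcna was also the member with the highest mean level, 42.2 CPM per kb, against 6.52 for Mcm4, 3.38 for Mki67 and 0.148 for Cenpf, the lowest. Tk1, thymidine kinase, was at 5.5, 2.47 and 2.9 CPM in SD mCherry, 3.81, 7.34 and 8.24 in HFD mCherry, 3.5, 3.95 and 8.17 in HFD Tert and 5.56, 5.92 and 3.56 in HFD TertCi. Its diet groups overlapped by SD mCherry replicate 1 (0.83 ± 0.479, adjusted p = 0.300). Rrm2, the small subunit of ribonucleotide reductase, was at 13, 3.25 and 13.1 CPM in SD mCherry, 8.84, 10.1 and 8.18 in HFD mCherry, 11.9, 7.69 and 12.3 in HFD Tert and 13.9, 6.63 and 15.8 in HFD TertCi. It was low in SD mCherry replicate 2 alone among its group (-0.11 ± 0.495). Rrm1, the large subunit, and Tyms, thymidylate synthase, had -0.04 ± 0.187 and 0.01 ± 0.373.

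Several lists of markers of other cell types also had higher values on the high-fat diet. All 10 macrophage markers had log2 fold changes above 0, and their summed level was 532 to 879 CPM in SD mCherry and 1834 to 4735 CPM in HFD mCherry. Of 8 lipid-associated macrophage markers 7 were higher (347 to 738 CPM against 1415 to 5340 CPM), of 6 endothelial markers 5 (594 to 910 CPM against 1452 to 2605 CPM), of 7 progenitor markers 6 (3204 to 3858 CPM against 3574 to 9352 CPM), and of 7 T cell markers 5 (16.0 to 16.9 CPM against 22.8 to 105 CPM). The T cell sum rests on Il7r: without it the sums overlapped, at 10.1 to 12.8 CPM and 7.62 to 14.9 CPM. edgeR called none of these markers, and DESeq2 called 9 macrophage, 5 lipid-associated macrophage, 2 endothelial, 2 progenitor and 1 T cell marker, all higher. Of 8 epididymis and epithelium markers 2 were higher (3989 to 54740 CPM against 231 to 10214 CPM). Mesothelial markers went the other way. Of 5, 1 was higher, and the sums did not overlap (412 to 1114 CPM against 270 to 290 CPM). For these 5, edgeR called none and DESeq2 called 1 lower. Sums of B and plasma cell, erythroid, adipocyte and spermatid markers overlapped between the diets. The part of all these markers in the diet difference of the members was not tested.

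Tert and TertCi did not bring a called difference in any member. Of the 41, 17 had a log2 fold change above 0 in HFD Tert against HFD mCherry (46.2% of all genes) and 16 in HFD TertCi against HFD mCherry (47.4% of all genes). The members' medians were -0.15 and -0.13, and those of all genes -0.05 and -0.04. These 2 comparisons share the HFD mCherry libraries, so their values are given side by side and not as support for each other. edgeR called 0 of 41 members in each, where it called 0% of all genes in either direction for Tert and 0% higher and 0.0120% lower for TertCi. DESeq2 called 0 members in each, while calling 1.92% of all genes higher and 3.21% lower for Tert, and 1.37% and 2.94% for TertCi.

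At an unadjusted p under 0.05, 0 members were higher (6.62% of all genes) and 4 lower (9.75%) in HFD Tert, namely Mybl2, Kif11, Bub1 and Mcm5. In HFD TertCi 0 were higher (5.76% of all genes) and 1 lower (8.92%), Foxm1. No overlap held for 0 higher (9.99% of all genes) and 6 lower (11.1%) members in HFD Tert: Bub1, Bub1b, Kif11, Mybl2, Foxm1 and Mcm5. In HFD TertCi it held for 2 higher (9.45% of all genes), Ccna2 and Ccne2, and 6 lower (12%): Plk1, Aurkb, Bub1, Kif11, Foxm1 and Cdt1. As a share of the members, 6 is 14.6%.

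Bub1, Kif11 and Foxm1 were the members lower than every HFD mCherry library in all 6 knock-in libraries, where 7.03% of all genes lay lower and 6.01% higher in this way. These 3 genes are 7.32% of the members, near the share of all genes. Bub1 had log2 fold changes of -1.57 ± 0.682 in HFD Tert (edgeR adjusted p = 0.290) and -1.36 ± 0.677 in HFD TertCi (0.383). Kif11 had -1.31 ± 0.5 (0.250) and -1.08 ± 0.497 (0.348). Foxm1 had -0.98 ± 0.445 (0.308) and -0.98 ± 0.446 (0.341). With the 6 knock-in libraries set together against the 3 HFD mCherry libraries, these were -1.47 ± 0.557 for Bub1 (adjusted p = 0.175), -1.19 ± 0.412 for Kif11 (0.150) and -0.98 ± 0.371 for Foxm1 (0.174). In that comparison edgeR and DESeq2 called 0 of 41 members each, edgeR having called 0.0239% of all genes higher and 0.144% lower and DESeq2 3.64% and 6.07%. At an unadjusted p under 0.05, 0 were higher (7.56% of all genes) and 4 lower (13.4%), the fourth being Aurkb, and the members' median was -0.10.

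For Mki67, HFD Tert replicates 25 and 26 lay in or just above the standard diet range and replicate 27 lay within the HFD mCherry range. Its log2 fold change in HFD Tert was -0.75 ± 0.520 (adjusted p = 0.476), -1.64 without replicate 27 and -0.44 without replicate 25. In HFD TertCi it was -0.72 ± 0.520 (adjusted p = 0.539), with -0.98 to -0.46 over leaving out each library. Top2a had -0.49 ± 0.465 and -0.60 ± 0.465 in these comparisons, with -1.14 in HFD Tert without replicate 27 and -0.16 without replicate 25. Ccnb1 had -1.31 ± 0.838 and -1.51 ± 0.842, and Cdk1 -0.05 ± 0.492 in both. Ccne2 was highest of the 41 in HFD Tert (0.57 ± 0.294, adjusted p = 0.359), and Mcm3 in HFD TertCi (0.48 ± 0.369, adjusted p = 0.567). The DNA synthesis genes Pcna, Rrm2 and Tk1 had -0.09 ± 0.295, 0.24 ± 0.495 and -0.31 ± 0.476 in HFD Tert, and -0.17 ± 0.295, 0.42 ± 0.495 and -0.37 ± 0.476 in HFD TertCi. The signs of Pcna and Cdk1 turned under library-size scaling alone in HFD Tert, and that of Cdk1 in HFD TertCi.

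Active and inactive Tert were compared directly as well. Of the 41 members 21 had a log2 fold change above 0 in HFD Tert against HFD TertCi (48.2% of all genes), and the median was 0.01. edgeR called 0 members (0% of all genes in either direction) and DESeq2 0 (0.0181% of all genes higher and 0.0363% lower). At an unadjusted p under 0.05, 0 members were higher (0.766% of all genes) and 1 lower (0.592%), Mybl2, at -1.33 ± 0.561 (edgeR adjusted p = 1). Mybl2 was also the 1 member whose groups did not overlap (2.55% of all genes higher and 2.58% lower), with all 3 HFD Tert libraries at or under 0.480 CPM. The members' median was -0.31 without HFD Tert replicate 27 and 0.21 without HFD Tert replicate 25. A p that misses the threshold does not show that both forms act alike: the SE of Mki67 here was 0.518 around a log2 fold change of -0.04.

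Values of macrophage markers lay lower in the knock-in groups than in HFD mCherry. All 10 were below 0 in HFD Tert and in HFD TertCi against HFD mCherry, with summed levels of 437 to 1865 CPM and 647 to 1135 CPM against 1834 to 4735 CPM. All 6 endothelial markers were above 0 in both, at 1528 to 4047 CPM and 1922 to 3996 CPM against 1452 to 2605 CPM. The mesothelial sums did not overlap, at 602 to 1364 CPM in HFD Tert and 613 to 817 CPM in HFD TertCi against 270 to 290 CPM in HFD mCherry, and 4 of 5 were above 0 in both. Both knock-in ranges overlapped that of SD mCherry, at 412 to 1114 CPM. edgeR called none of the macrophage, endothelial and mesothelial markers. DESeq2 called 8 macrophage markers lower and 2 mesothelial markers higher in HFD Tert, and 6 macrophage markers lower, 2 mesothelial markers and 1 endothelial marker higher in HFD TertCi.

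Pdgfra, a receptor that marks adipose progenitors, was the 1 listed cell type marker that edgeR called. It was at 137, 103 and 84.5 CPM in SD mCherry, 198, 232 and 232 in HFD mCherry, 74.3, 61.3 and 89.6 in HFD Tert and 64.3, 56.7 and 63.9 in HFD TertCi. All HFD mCherry libraries lay above all 9 others. Its log2 fold change was -1.55 ± 0.218 in HFD Tert (edgeR adjusted p = 0.123), -1.84 ± 0.220 in HFD TertCi (0.0426) and -1.70 ± 0.178 for the knock-in libraries set together (0.0119). The TertCi call was lost on leaving out 10 of the 12 libraries in turn (adjusted p from 0.0222 to 0.373 over the 12), with library size only (0.121) and with only the groups compared (0.180). The call for the knock-in libraries set together was lost on leaving out 7 of the 12 (0.00548 to 0.131). The summed level of the 7 progenitor markers overlapped between the groups, at 4625 to 8093 CPM in HFD Tert and 3832 to 8431 CPM in HFD TertCi. The part of all these markers in the members' values was not tested.

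Over the 4 groups, the F-test of the same model called 0 of 41 members, where 0.0120% of all genes were called, and 5 members had an unadjusted p under 0.05 (20.2% of all genes). Those were Bub1b, Mki67, Foxm1, Aurkb and Cenpa. The smallest edgeR adjusted p was 0.177, for Bub1b. DESeq2's likelihood ratio test called 2 of 41, where it called 14.5% of all genes: Bub1b (adjusted p = 0.0281) and Mki67 (0.0430).

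Within HFD mCherry and HFD Tert, members tended to be high or low in the same libraries. HFD mCherry replicate 15 was the lowest of its 3 libraries for 32 of 41 members, HFD Tert replicate 25 the lowest of its 3 for 30, and HFD Tert replicate 27 the highest of its 3 for 34. The other groups were more divided. In HFD TertCi, replicate 31 was highest for 18 members and replicate 33 for 19. In SD mCherry, replicate 2 was lowest for 15 and replicate 3 for 19, while replicate 1 was highest for 25. The median deviation of the members from their group mean, on the log2 scale, was -0.36 in each of HFD mCherry replicate 15 and HFD Tert replicate 25 and 0.48 in HFD Tert replicate 27, while the medians for all genes in these libraries lay between -0.04 and 0.03. TMM scaling tends to hold such medians of all genes near 0. The summed level of the 41 genes was 401, 355 and 349 CPM in SD mCherry, 381, 586 and 549 CPM in HFD mCherry, 348, 424 and 607 CPM in HFD Tert, and 387, 528 and 476 CPM in HFD TertCi. The 4 highest sums were those of HFD mCherry replicates 17 and 20, HFD Tert replicate 27 and HFD TertCi replicate 31. These 4 libraries also had the 4 lowest sums of epididymis and epithelium markers (56.2 to 2046 CPM, against 3989 CPM and above elsewhere) and the 4 highest sums of progenitor markers (8093 to 9352 CPM, against 5701 CPM and below). By the mean of log2(CPM + 0.5) over the 41 genes, HFD TertCi replicate 33 (2.93) stood above replicate 31 (2.87). Replicate 33 had an epididymis and epithelium sum of 27686 CPM, so the match of 4 libraries holds for summed levels only. Whether tissue make-up sets the members' level was not tested. The within-group SD of single members on the log2 scale ran from 0.18 for Rrm1 to 0.98 for Ccnb1.

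**Figure D4:**
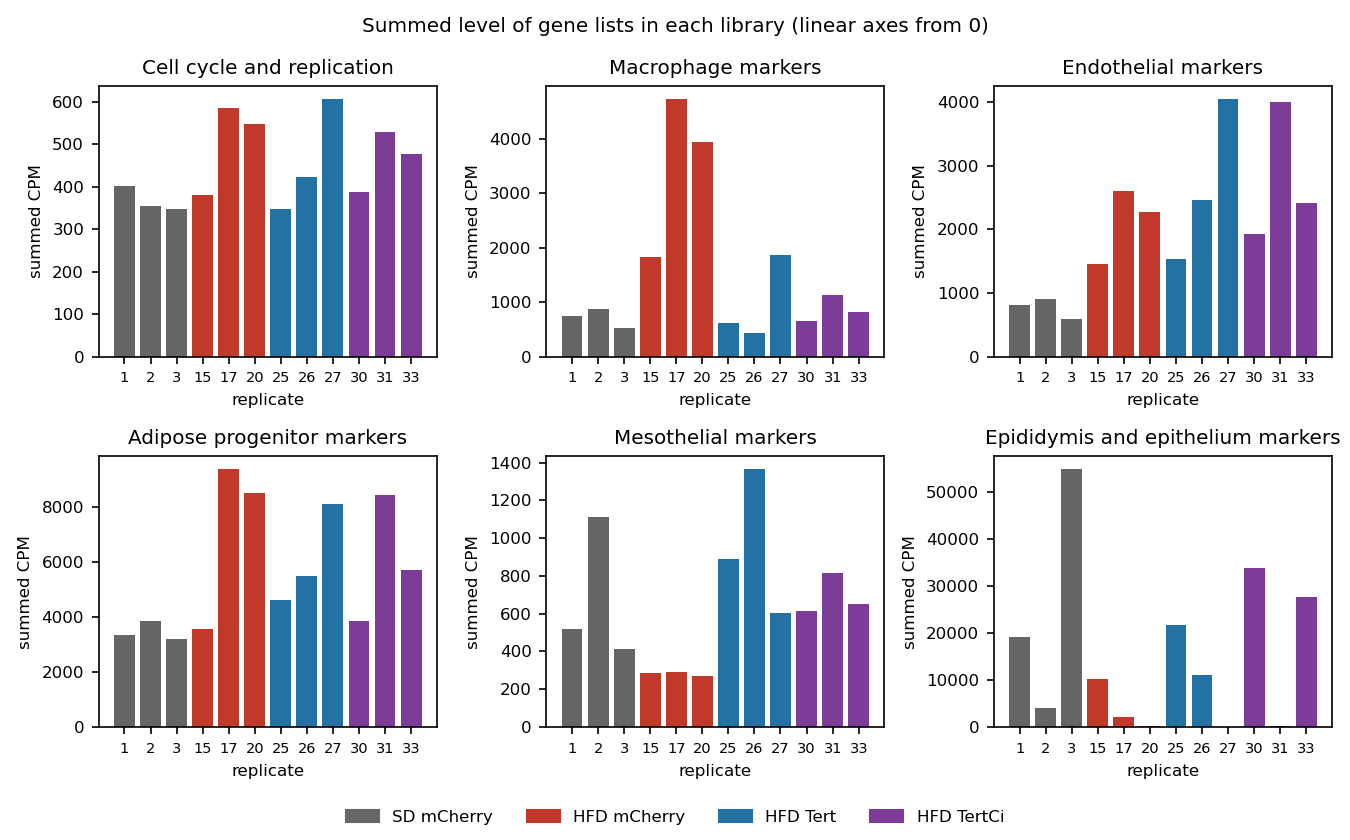
Summed CPM of the 41 cell cycle and replication genes and of 5 marker lists in each library (bars, linear axes from 0, labelled by replicate and coloured by group). HFD Tert replicate 27 has the highest sum of the 41 genes (607 CPM) and the lowest sum of epididymis and epithelium markers (56.2 CPM).

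Lists of other cell cycle genes were also read with diet, and the difference between them was not tested. Of 46 further kinetochore, spindle and cytokinesis genes tested, 37 had a diet log2 fold change above 0 (45.9% of all genes; median 0.60), and 19 had all HFD mCherry libraries above SD mCherry (13.9% of all genes) and 3 below (11.6%). Of 34 further replication fork and licensing genes 14 were above 0 (median -0.25), 4 had all HFD mCherry libraries above and 8 below. edgeR called none of these 80 genes with diet; at an unadjusted p under 0.05, 10 spindle genes were higher (14.1% of all genes) and 2 lower (10%), and 2 replication genes higher and 7 lower. DESeq2 called 1 spindle gene higher (8.5% of all genes) and 2 lower (4.79%), and 1 replication gene higher and 5 lower, so the spindle genes it called higher were a smaller share than among all genes. Rfc2, a subunit of the clamp loader, had the smallest p among the replication genes: 19.8, 26.3 and 25.9 CPM in SD mCherry and 15.9, 12.4 and 11.5 in HFD mCherry. The diet groups did not overlap, at a log2 fold change of -0.86 ± 0.248 (adjusted p = 0.0942).

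Pttg1 (securin), which guards sister chromatid cohesion until anaphase, was the 1 gene of these cell cycle lists that edgeR called, and it went against the mitotic genes. It was at 36.8, 54.6 and 46.6 CPM in SD mCherry, 24.9, 20.5 and 21 in HFD mCherry, 43.9, 53.5 and 59.1 in HFD Tert and 54.9, 70.3 and 43 in HFD TertCi. All 6 knock-in libraries and all 3 standard diet libraries lay above all 3 HFD mCherry libraries. Set together, the knock-in libraries rose by 1.29 ± 0.209 on the log2 scale (edgeR adjusted p = 0.0483, DESeq2 7.49e-06). The edgeR call was lost on leaving out 9 of the 12 libraries in turn, with adjusted p from 0.0210 to 0.235 over the 12. It was also lost with limma-voom (0.0751) and with DESeq2 size factors in edgeR (0.0552). The diet log2 fold change was -1.06 ± 0.230 (edgeR adjusted p = 0.0671).

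G1 genes had differing directions. Of 21 G1 entry and Rb/E2F genes tested, 13 were above 0 with diet (45.9% of all genes; median 0.35) and edgeR called 0. At an unadjusted p under 0.05, 4 (19.0%) were higher and 5 (23.8%) lower, against 14.1% and 10% of all genes. DESeq2 called 2 higher and 3 lower, against 8.5% and 4.79% of all genes. Ccnd3 (cyclin D3), a partner of CDK4 and CDK6, was at 93.2, 135 and 141 CPM in SD mCherry, 88.9, 69.9 and 62.5 in HFD mCherry, 139, 159 and 129 in HFD Tert and 148, 135 and 122 in HFD TertCi. All HFD mCherry libraries lay below all 9 others. Its log2 fold change was -0.74 ± 0.210 with diet (edgeR adjusted p = 0.0905), and 0.95 ± 0.211 in HFD Tert (0.187) and 0.87 ± 0.210 in HFD TertCi (0.183). Ccnd1 (cyclin D1) and E2f3, a further E2F activator, were singled out after their values were seen. Ccnd1 was at 339.9, 345 and 355 CPM in SD mCherry, 167, 94.2 and 88.9 in HFD mCherry, 321, 239 and 133 in HFD Tert and 319, 120.5 and 314 in HFD TertCi. HFD mCherry lay far below SD mCherry, and among high-fat diet libraries the 4 with the least epithelial signal were the 4 lowest (diet -1.57 ± 0.426, adjusted p = 0.0851). E2f3 was at 8.91, 12.2 and 19 CPM in SD mCherry, 20, 37.2 and 38.2 in HFD mCherry, 20.8, 17.6 and 25.6 in HFD Tert and 15.1, 24.5 and 20.3 in HFD TertCi. It ran the other way, higher in all HFD mCherry libraries than in SD mCherry (1.25 ± 0.347, adjusted p = 0.0880). Tfdp2, a dimer partner of E2F proteins, had the smallest diet p of the list, with -0.77 ± 0.208 (adjusted p = 0.0848).

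**Figure D5:**
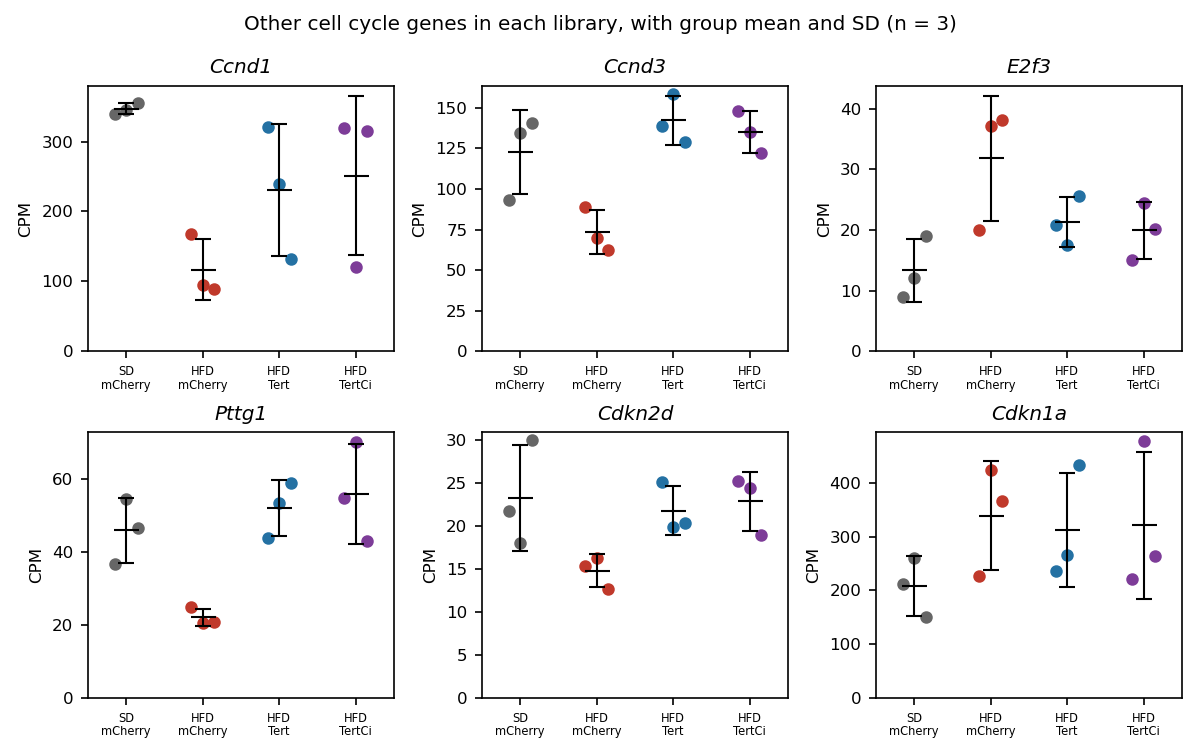
Level in CPM (linear axes from 0) of Ccnd1, Ccnd3, E2f3, Pttg1, Cdkn2d and Cdkn1a in each library, by group. Points are the 3 libraries, and lines the group mean and SD. Ccnd3 and Pttg1 are lower in all 3 HFD mCherry libraries than in the other 9, at 62.5 to 88.9 CPM and 20.5 to 24.9 CPM.

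Of 7 CDK inhibitors, 4 were above 0 with diet (45.9% of all genes), and neither edgeR nor DESeq2 called any with diet, Tert or TertCi. At an unadjusted p under 0.05 edgeR had 1 in each, Cdkn2d, which was lower with diet (10% of all genes) and higher in HFD Tert (6.62%) and HFD TertCi (5.76%). Cdkn1a, the p21 gene that carries the modified allele in all groups, was at 213, 261 and 150.1 CPM in SD mCherry, 226, 425 and 367 in HFD mCherry, 237, 267 and 433 in HFD Tert and 222, 478 and 265 in HFD TertCi. It was highest in the same 4 libraries as the members' sum, and its log2 fold changes were 0.71 ± 0.374 with diet (adjusted p = 0.265), -0.12 ± 0.372 in HFD Tert and -0.08 ± 0.372 in HFD TertCi. Cdkn2d (p19INK4d) was at 21.7, 18 and 29.9 CPM in SD mCherry, 15.4, 16.3 and 12.7 in HFD mCherry, 25, 19.9 and 20.3 in HFD Tert and 25.1, 24.4 and 18.9 in HFD TertCi. All HFD mCherry libraries lay below the others, at -0.65 ± 0.238 with diet (adjusted p = 0.146). Cdkn1b, Cdkn1c, Cdkn2a, Cdkn2b and Cdkn2c had diet log2 fold changes of -0.20, 0.05, 0.94, 0.06 and -0.16, all with overlapping groups. Among 10 DREAM and MuvB subunits, Lin52 had the smallest diet p (-0.74 ± 0.209, adjusted p = 0.0891), and among 15 S-phase checkpoint and repair genes Brca1 did (1.29 ± 0.433, adjusted p = 0.124). Brca1 was at 2.8, 2.18 and 1.8 CPM in SD mCherry, 3.92, 5.77 and 6.93 in HFD mCherry, 1.69, 1.55 and 3.7 in HFD Tert and 3.16, 2.45 and 2.76 in HFD TertCi. Like Bub1, it was higher in all HFD mCherry libraries than in the other 9.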

How the data were processed

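Poly-A RNA-seq counts of 12 mouse adipose libraries in 4 groups of 3 were analysed, grouped by their titles. Raw read counts per gene were deposited by the authors, 1 table for each library. The submitters' processing notes name Subread, SAMtools, featureCounts 1.6.4 and the mm10 build; what each did, which annotation was counted and whether strand was used is not given in the sources used here. No table line lacked a gene name.

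The filterByExpr rule left 16713 genes, all 41 members among them. Counts were scaled by TMM (factors 0.854 to 1.15) and tested with edgeR 4.0.16 (R 4.3.3) in 1 quasi-likelihood model over all 12 libraries (common coefficient of variation 0.536, 8 residual degrees of freedom), 2-sided, with Benjamini-Hochberg adjustment and calls under 0.05. Standard errors were derived from the test, as the absolute log2 fold change divided by the square root of its F statistic. Alternatives were DESeq2 1.42.0, limma-voom (limma 3.58.1), other scalings and filters, an epithelial marker covariate, only the groups compared, and leaving out each library. On simulated counts for the diet comparison, with 200 genes changed and the dispersion of these data, 0% of log2 changes of 1 were recovered (16441 genes tested), 37.5% of changes of 2 (16431 genes) and 78.5% of changes of 4 (16463 genes).

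The members, gene lists and tests were chosen with earlier results of these data known. Values in every library are given for the member of each role with the highest mean CPM, those with the highest and the lowest log2 fold change with diet, Tert and TertCi, any member called, and Mki67, Top2a, Cdk1, Ccnb1, E2f1, Foxm1, Mcm2 and Pcna. Bub1b and Aurkb, which alternatives called but the main test did not, were added after their values were seen. Of other lists, called genes, those with the smallest p and CDK inhibitors are named. RefSeq promoters and GENCODE M21 genes on GRCm38 were used for sequences, coordinates and exon overlap.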

Additional observations from a re-analysis of the deposited data

How the results depend on the processing

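The number of members called with diet moved from 0 to 5 with DESeq2 and to 1 with the epithelial covariate. It ran from 0 to 5 over leaving out each library (5 without HFD mCherry replicate 15, 1 without HFD Tert replicate 27). In every setting the called members were higher on the high-fat diet. For the covariate and the omissions, the share of all genes called is not given here. The count called by the test over the 4 groups moved from 0 to 2 with DESeq2. Tert, TertCi, their mean and Tert against TertCi gave 0 calls in all 20 alternatives run for each. The diet median of 0.57 was 0.33 with library size only, where the median of all genes shifted from -0.08 to -0.27, and ran from 0.44 to 0.71 over leaving out each library. Over the same omissions the median ran from -0.46 to 0.05 for Tert, -0.31 to -0.06 for TertCi, -0.28 to 0.04 for their mean and -0.31 to 0.21 for Tert against TertCi, where it turned to -0.31 without HFD Tert replicate 27. The count of 12 members higher at an unadjusted p ran from 6 to 14 over these omissions and from 8 to 13 over the other settings. That of 17 without overlap ran from 17 to 27 over omissions and was 13 with library size only. Shares of all genes beside these counts are given above for 12, 17 and 27 only. Alternatives to both counts, and those for Pttg1 and Pdgfra, were chosen after seeing the data. With a mean CPM of at least 1, Mybl2 was not tested.

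Of 300 values of 15 named members with diet, 288 kept direction and side of the threshold and 12 passed it. With library size only, Cdk1 turned to 0.036 and Pcna to 0.015 in HFD Tert and Cdk1 to 0.082 in HFD TertCi, where Cdk1 was also 0.00336 with the epithelial covariate and 0.032 with only the groups compared. Over leaving out each library, values of both signs were found in HFD Tert for Cdk1 (-0.53 to 0.34), Mcm2 (-0.026 to 0.31) and Pcna (-0.37 to 0.078), and in HFD TertCi for Cdk1 (-0.19 to 0.12) and Pcna (-0.46 to 0.0013). The cause was not tested. No paired analysis was possible because replicate numbers differ between all 4 groups. Members at few CPM rest on few reads. In the simulation, 0% of log2 changes of 1 were recovered among 200 genes drawn from all genes tested. It does not give the recovery for the members themselves, which differed in spread within groups.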
